A study of Saccharomyces cerevisiae with 10 samples.

Results

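Accessible chromatin was followed at the genes that bring mannose and glucose into metabolism in budding yeast, HXK1 (YFR053C), HXK2 (YGL253W), GLK1 (YCL040W), EMI2 (YDR516C), PMI40 (YER003C), SEC53 (YFL045C) and PSA1 (YDL055C). The members were the merged ATAC-seq peaks whose assigned promoter, in the authors' annotation, belongs to one of these 7 genes. The rule found 3 peaks of 3515, 1 each for HXK1, HXK2 and GLK1, and the other 4 genes had no assigned peak and drop out of it. A peak nevertheless lay at the start of each of those 4 genes and of HXK2, assigned by the authors to a neighbouring unit, so that 8 peaks in all were followed. In ATAC-seq the transposase Tn5 cuts DNA that is not packed away, and open chromatin yields more reads than compact chromatin. All libraries came from WP35, a haploid W303 strain of mating type alpha that carries a YFP reporter driven by the GAL1 promoter at the ho locus. Frozen stocks of a single evolving population, replicate L3, in which cells with low YFP were selected early and later grew without selection, were revived for Day 0, Day 3, Day 7, Day 10 and Day 28. Every culture grew for 22 h at 30 °C with 0.1% mannose as its carbon source and then for 24 h with 0.1% mannose and 0.2% galactose, and 2 libraries were made per day. Nothing in the labels says that the libraries of a day came from separate cultures, and only 1 evolved population was sampled, so p-values measure the spread between these libraries. Signal is an average over the population, in which more cells with an open site and a more open site in each cell cannot be told apart.

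Mannose taken up by yeast is phosphorylated at carbon 6 by the hexokinases, as glucose is. Hxk1 and Hxk2 are paralogous hexokinases, Glk1 is a glucokinase that also accepts mannose, and EMI2 encodes the paralogue of Glk1. The phosphomannose isomerase Pmi40 interconverts mannose 6-phosphate with fructose 6-phosphate of glycolysis. The phosphomannomutase Sec53 turns mannose 6-phosphate into mannose 1-phosphate, from which the pyrophosphorylase Psa1 makes GDP-mannose, the mannose donor of protein glycosylation. HXK1 and GLK1 are known as genes repressed by glucose, whereas HXK2 is the hexokinase gene used on glucose, and its product also takes part in glucose repression through the repressor Mig1.

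Promoter sequences were read from the R64 assembly, from 250 bases before to 50 after each coding start, and are shown for the 4 kinase genes. Their start peaks were called over the 5 days in the main test described below, as were 71.2% of all peaks. Other scalings of the counts called other members. Capitals mark matches on either strand to AGGGG (the stress response element of Msn2 and Msn4), GCGGGG and GTGGGG (the Mig1 core), CGGANNA (Rgt1), CGG and CCG with a spacer of 11 bases (Gal4) and CCAAT (the Hap2/3/4/5 complex). No motif contains another. The promoter windows lie at chrVI:255000-255299 on the minus strand for HXK1, chrVII:23685-23984 on the plus strand for HXK2, chrIII:50588-50887 on the plus strand for GLK1 and chrIV:1476427-1476726 on the minus strand for EMI2.
HXK1 promoter: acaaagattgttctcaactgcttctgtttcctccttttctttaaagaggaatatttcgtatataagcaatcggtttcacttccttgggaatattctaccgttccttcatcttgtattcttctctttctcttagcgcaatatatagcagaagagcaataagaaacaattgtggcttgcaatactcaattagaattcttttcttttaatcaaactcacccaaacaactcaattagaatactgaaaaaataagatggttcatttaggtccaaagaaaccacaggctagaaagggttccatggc
HXK2 promoter: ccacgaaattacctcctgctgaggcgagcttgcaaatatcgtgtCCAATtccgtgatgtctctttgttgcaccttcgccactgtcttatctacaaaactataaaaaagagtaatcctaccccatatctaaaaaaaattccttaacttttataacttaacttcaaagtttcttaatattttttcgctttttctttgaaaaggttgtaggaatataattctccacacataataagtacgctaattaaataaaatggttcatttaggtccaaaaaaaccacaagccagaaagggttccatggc
GLK1 promoter: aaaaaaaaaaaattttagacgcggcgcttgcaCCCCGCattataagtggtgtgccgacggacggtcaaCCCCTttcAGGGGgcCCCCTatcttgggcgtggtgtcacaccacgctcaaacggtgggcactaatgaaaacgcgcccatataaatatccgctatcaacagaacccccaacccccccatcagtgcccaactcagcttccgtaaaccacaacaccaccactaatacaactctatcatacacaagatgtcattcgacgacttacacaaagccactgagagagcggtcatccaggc
EMI2 promoter: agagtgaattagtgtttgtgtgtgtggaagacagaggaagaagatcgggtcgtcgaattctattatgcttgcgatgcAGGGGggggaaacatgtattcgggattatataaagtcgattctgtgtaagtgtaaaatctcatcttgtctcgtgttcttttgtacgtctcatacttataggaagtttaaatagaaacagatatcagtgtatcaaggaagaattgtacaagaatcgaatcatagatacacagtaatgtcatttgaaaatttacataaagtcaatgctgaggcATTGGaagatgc

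The GLK1 promoter held 3 matches to AGGGG, which began 182, 174 and 167 bases before the coding start, and 1 to GCGGGG at 218 bases. The EMI2 promoter held 1 match to AGGGG at 173 bases, close to the place of those of its paralogue, and a CCAAT match within its coding sequence. The HXK2 promoter held 1 CCAAT match at 206 bases, and the HXK1 promoter held none of the motifs. SEC53 had a CCAAT match 6 bases before its start, and the windows of PMI40 and PSA1 held none. Of the 6001 promoters of protein-coding genes in R64, 21.613% held AGGGG, 2.566% held GCGGGG, 4.383% held GTGGGG, 26.429% held CGGANNA, 1.35% held the Gal4 motif and 43.343% held CCAAT. A match describes the letters only.

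The HXK1 peak reached much farther upstream than the promoter window, and its matches lay there but for 1 CCAAT match in the coding sequence. Its densest stretch of 300 bases, chrVI:255523-255822 on the minus strand, ran from 773 to 474 bases before the coding start. It is shown because it held 9 matches, 4 to the stress response element, 2 to the Rgt1 motif, 1 to the Gal4 motif and 1 to each form of the Mig1 core. The Gal4 match began 679 bases before the start and overlapped an Rgt1 match that began at 664 bases.
HXK1 upstream stretch: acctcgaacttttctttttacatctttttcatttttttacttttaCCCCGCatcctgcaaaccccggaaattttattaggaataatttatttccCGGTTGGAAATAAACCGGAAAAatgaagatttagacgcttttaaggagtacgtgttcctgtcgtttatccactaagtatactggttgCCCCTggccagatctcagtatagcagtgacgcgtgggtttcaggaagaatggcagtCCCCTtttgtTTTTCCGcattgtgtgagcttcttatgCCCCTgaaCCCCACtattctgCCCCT

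Over its whole length the HXK1 peak held 5 matches to AGGGG, or 2.254 per kb against 0.933 per kb over all peaks, and 4 to GTGGGG, or 1.803 against 0.231 per kb. The GLK1 peak held 6 matches to AGGGG, at 1.86 per kb, and the EMI2 peak held 6, at 2.06 per kb. The HXK2 start peak held 0, the PSA1 peak 4, at 1.204 per kb, and the PMI40 and SEC53 peaks 1 each, at 0.552 and 0.679 per kb. Of the other peaks only that of EMI2 held GTGGGG, with 2 matches, at 0.687 per kb. GCGGGG matched once each in the HXK1, HXK2 start, EMI2 and GLK1 peaks, at 0.451, 0.436, 0.343 and 0.31 per kb against 0.128 per kb over all peaks. The Gal4 motif matched once in the HXK1 peak and at 2 places in the GLK1 peak, and 8.364% of all peaks held a match.

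The paralogues are alike enough that short reads could be misplaced, and their coding sequences were therefore compared. HXK1 and HXK2 were identical at 77.9% of aligned coding positions with a longest shared run of 23 bases, and GLK1 and EMI2 at 69.2% with a longest run of 15. The first 50 coding bases are shown, with capitals where the paralogues differ, since they lie inside the start peaks.
HXK1 coding start: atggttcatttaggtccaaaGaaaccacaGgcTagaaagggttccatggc
HXK2 coding start: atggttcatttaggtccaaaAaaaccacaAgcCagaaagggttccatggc
GLK1 coding start: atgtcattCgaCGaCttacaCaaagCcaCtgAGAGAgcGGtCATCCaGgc
EMI2 coding start: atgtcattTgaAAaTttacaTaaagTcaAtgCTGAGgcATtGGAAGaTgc

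HXK1 and HXK2 shared 47 of these 50 bases, GLK1 and EMI2 shared 30. The share of windows of 100 bases that occurred again in the genome was 0.53% in the PSA1 start peak and 0.0% in the other 7 peaks.

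The peaks differed in how well they belonged to their gene. The HXK1 peak, chrVI:254575-256792, was 2218 bp long, covered 32.6% of the gene and held no coding start but that of HXK1. The GLK1 peak, chrIII:49742-52967, was 3226 bp long and covered the whole gene, but it also held the starts of PDI1, YCL042W and GID7, so that 4 genes share its counts. The assigned HXK2 peak, chrVII:25007-25337, was a region of 331 bp inside the coding sequence that began 1072 bp past the start. It was called by MACS2 on Day 28 only and was annotated as the end of the convergent gene YGL252C, and it is called the HXK2 internal peak here. The peak at the start of HXK2, chrVII:21826-24119, was assigned to FZF1, whose start it also holds.

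The start peaks of the other 4 genes were shared as well. That of EMI2, chrIV:1475980-1478891, held the starts of EMI2, GRH1 and EUG1 and was assigned to GRH1. That of PMI40, chrV:158820-160630, held the starts of PMI40, FMP52 and YND1 and was assigned to FMP52. That of SEC53, chrVI:44391-45862, was assigned to OTU1 and covered 252 of the 300 bases of the SEC53 promoter window. The peak upstream of PSA1, chrIV:356796-360118, stopped 37 bases short of the PSA1 coding start, covered 214 of the 300 window bases and was assigned to a lysine tRNA gene. MACS2 called 7 of the 8 peaks on all 5 days.

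**Figure D1:**
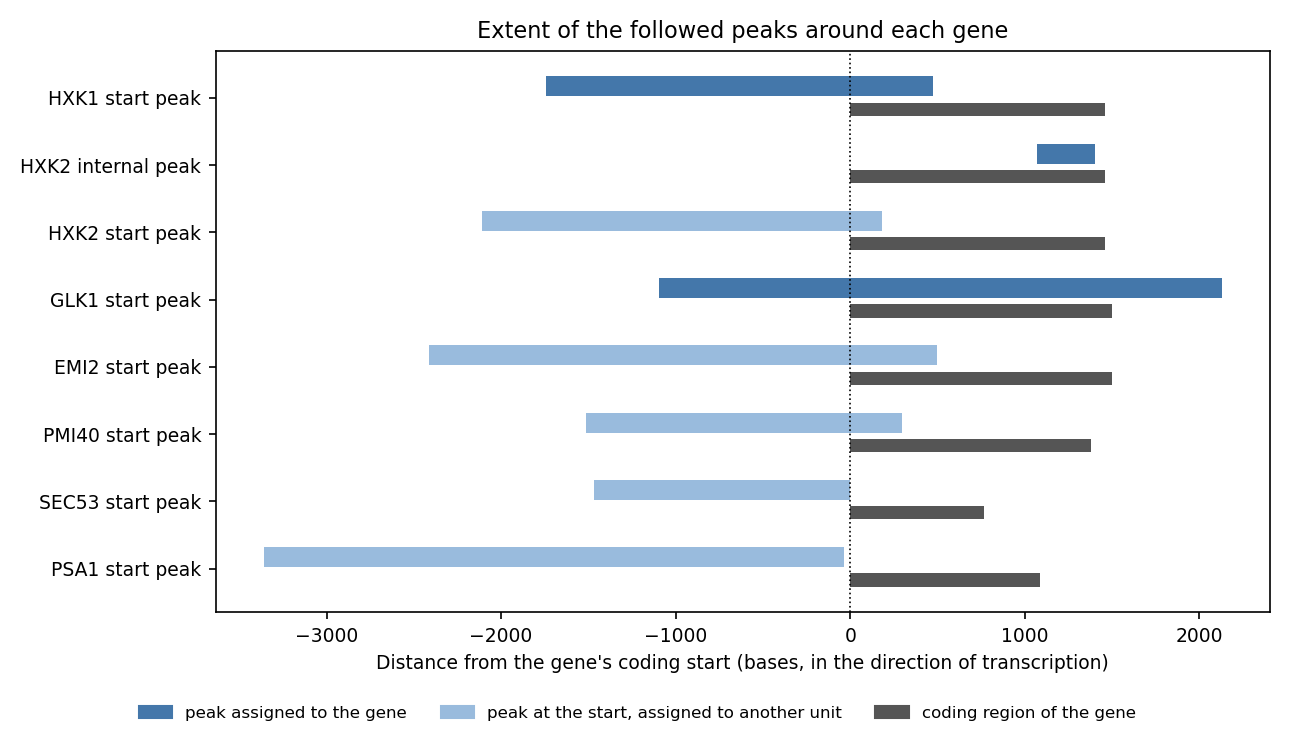
Extent of the 8 peaks (upper bars) and of the coding regions (lower bars), in bases from each gene's coding start along the direction of transcription. Dark blue peaks were assigned to the gene by the authors and light blue ones to another unit, and only the HXK2 internal peak lies wholly inside a coding region.

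The levels of the 8 peaks ranged widely, and the counts of every library were deep enough for each. A library held 4748625 to 18693542 counts in all peaks together, 13004858.5 at the median. Among the followed peaks the lowest raw count was 377, in the HXK2 internal peak. Per kb of peak, the mean normalized count over the 10 libraries was 6122 for HXK1 and 5885 for GLK1, above 96.3% and 95.6% of all peaks. It was 3346 for the HXK2 start peak, 2750.5 for EMI2, 2719 for PSA1, 2284 for PMI40, 2194 for the HXK2 internal peak and 1748 for SEC53, whereas the median peak had 2206. HXK1 and GLK1 lay close together in that order, and by day their means per kb were 5705 ± 917 and 5734 ± 1004 (SD, n = 2) on Day 0.

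Level matters for the comparisons, since between consecutive days the log2 fold change of a peak moved with its mean level. Level here is by count, not per kb. By count the HXK2 internal peak lay above 10.4% of all peaks, against 49.3% per kb. The HXK2 start, EMI2 and PSA1 peaks lay above 90.0%, 90.6% and 92.3% by count, against 80.9%, 69.6% and 68.8% per kb. Over the 3515 peaks, which are not independent replicates, Pearson's r of fold change and level was 0.64 for Day 3 vs Day 0, 0.24 for Day 7 vs Day 3, -0.74 for Day 10 vs Day 7 and 0.62 for Day 28 vs Day 10. In each library its 352 highest peaks took 42.2% to 44.3% of all counts on Day 3 and Day 7 and 33.7% to 39.3% on the other days. The part of this shift in the results was not tested. Pairs of days were tested in edgeR (quasi-likelihood, TMM scaling), with a peak called at a Benjamini-Hochberg adjusted p under 0.05 over all peaks, and fits after a loess offset on peak level or after scaling to total counts were set beside it. Sequencing took 2 runs for the Day 3 and Day 28 libraries and for Day 10 replicate 2, and the number of runs and the day cannot be told apart outside Day 10.

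The HXK1 peak, at the gene of the hexokinase repressed by glucose, was highest on Day 3 and lowest on Day 10. Day 0 gave 11216 and 14092 normalized counts, Day 3 gave 16816 and 19279, Day 7 gave 16476 and 15239, Day 10 gave 10079 and 8696, and Day 28 gave 10153 and 13743. Both libraries of Day 3 and of Day 7 lay above all 6 libraries of the other days. Separation by day was common, at 64.6% of all peaks for Day 3 vs Day 0 and 88.4% for Day 10 vs Day 7. The share of all peaks with this order, or with the orders of libraries given for the peaks below, was not counted. Over the 5 days the HXK1 peak differed with an adjusted p of 0.00205 in edgeR's quasi-likelihood F test.

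The GLK1 peak, at the glucokinase gene, followed a similar course but stayed high through Day 7. Day 0 gave 16206 and 20789 normalized counts, Day 3 gave 21189 and 26831.5, Day 7 gave 25101 and 23837.5, Day 10 gave 14219 and 12583, and Day 28 gave 12964 and 16132. The libraries of Day 3 and Day 7 again lay above all others, and the Day 10 and Day 28 libraries lay below those of Day 0. The edgeR F test over the 5 days gave an adjusted p of 0.00162, which was 0.0593 after loess, where 62.0% of all peaks were called.

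The start peak of HXK2, the main hexokinase gene on glucose, varied over a narrower range and was near its Day 0 level on Day 7. Day 0 gave 7067 and 7597 normalized counts, Day 3 gave 8847 and 9723, Day 7 gave 7643 and 7305, Day 10 gave 6585 and 6303, and Day 28 gave 7127 and 8559. The Day 3 libraries were the highest and the Day 10 libraries the lowest. The adjusted p of the edgeR F test was 0.00944, and 0.0712 without Day 3 replicate 2.

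The HXK2 internal peak was lowest on Day 7, when HXK1 and GLK1 were high. Day 0 gave 773 and 750.4 normalized counts, Day 3 gave 704 and 764, Day 7 gave 537 and 504, Day 10 gave 719 and 781, and Day 28 gave 870.1 and 859. The Day 7 libraries lay below all others. The Day 28 libraries lay above all others, but MACS2 called the region on Day 28 only, so that it entered the peak set through that day, and nothing is read from its Day 28 level or from the F test over the days (adjusted p of 0.000762 in edgeR), which includes it. The comparisons of Day 0, Day 3, Day 7 and Day 10 below do not use the Day 28 libraries.

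The EMI2 start peak, like that of HXK2, was highest on Day 3. Day 0 gave 7523.5 and 8474 normalized counts, Day 3 gave 9102 and 10478, Day 7 gave 7648 and 7394, Day 10 gave 7227 and 6732, and Day 28 gave 7658 and 7858. Both Day 3 libraries lay above all others, and those of Day 7 overlapped with those of Day 0. The adjusted p was 0.0104 in the edgeR F test and 0.111 without Day 3 replicate 2.

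The peaks of the genes that lead to GDP-mannose varied over narrower ranges. For PMI40, the isomerase gene, Day 0 gave 4151 and 3879.7 normalized counts, Day 3 gave 3672 and 3990.1, Day 7 gave 4012 and 4023, Day 10 gave 4262.5 and 4513, and Day 28 gave 4731 and 4128. For SEC53, the phosphomannomutase gene, Day 0 gave 2559 and 2885, Day 3 gave 2492 and 2825, Day 7 gave 2616 and 2686, Day 10 gave 2443 and 2482, and Day 28 gave 2278 and 2462. For PSA1, the pyrophosphorylase gene, Day 0 gave 8971 and 9716, Day 3 gave 9873 and 9513, Day 7 gave 9232 and 9096, Day 10 gave 8437 and 7928, and Day 28 gave 8461 and 9128. None of the 3 was called in the edgeR F test over the days, with adjusted p of 0.0813 for PMI40, 0.190 for SEC53 and 0.303 for PSA1. That test called 71.2% of all peaks and 5 of the 8 followed here, those of the 4 kinase genes, the HXK2 internal peak among them. After loess PMI40 and PSA1 were called, with adjusted p of 0.00419 and 0.000953, and GLK1 was not, and in DESeq2, which called 72.6% of all peaks, PSA1 was called as well (0.0375). On total counts all 8 were called, and 85.3% of all peaks.

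**Figure D2:**
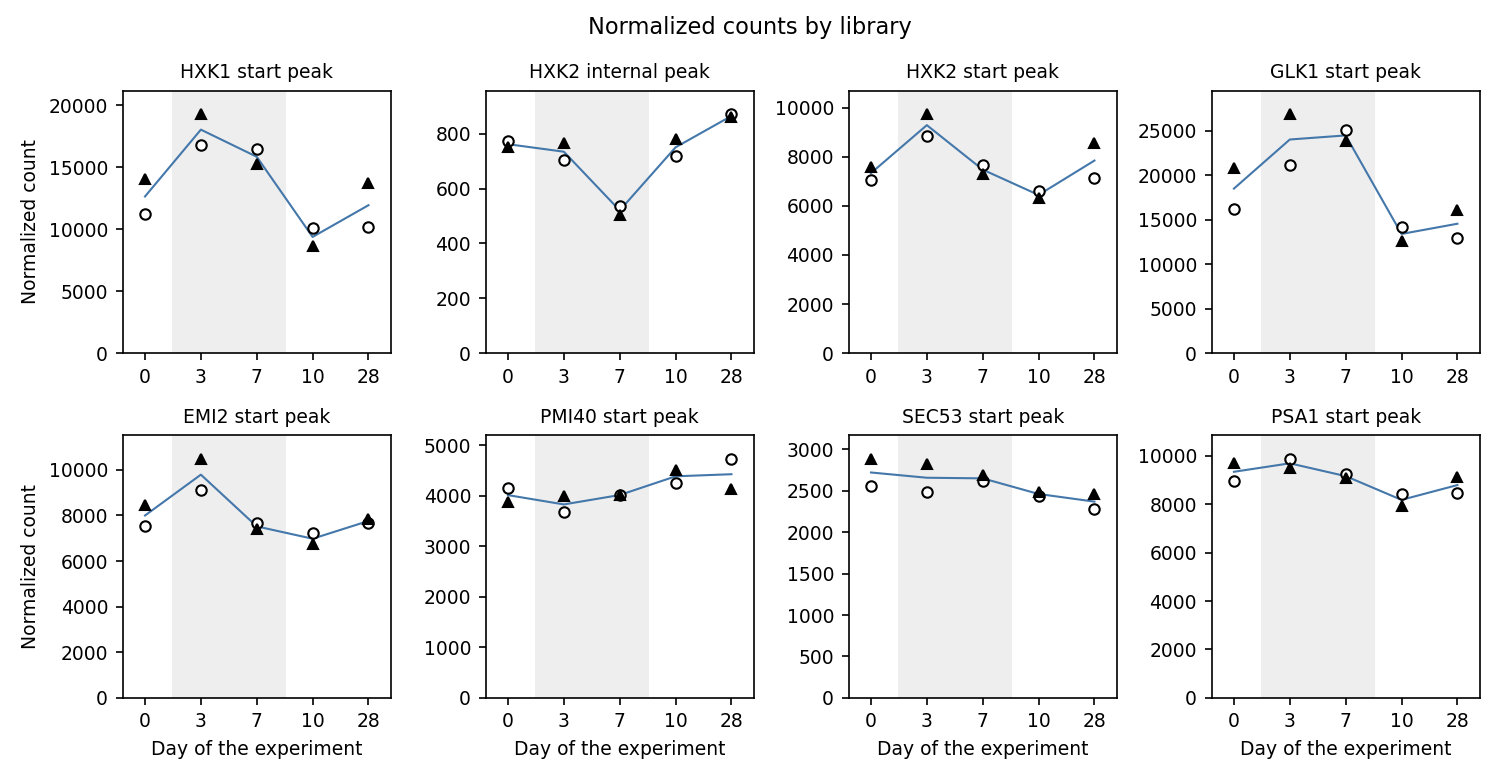
Normalized counts of the 8 peaks by day, with the days spaced evenly, from 0 on each vertical axis. Open circles are replicate 1, filled triangles replicate 2, the line joins the means, and the grey band marks Day 3 and Day 7.

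Day 3 vs Day 0 asked what differed in the first days of selection. None of the 8 peaks was called in edgeR, against 18.6% of all peaks, and 2 of the 8 and 1183 of all 3515 peaks had an unadjusted p under 0.05. The log2 fold change in edgeR was 0.49 ± 0.21 (SE) for HXK1 with an adjusted p of 0.0838, and 0.32 ± 0.15 for the HXK2 start peak with an adjusted p of 0.121. It was 0.35 ± 0.25 for GLK1 and 0.27 ± 0.16 for EMI2, whose adjusted p were 0.301 and 0.212. After loess the values of GLK1 and EMI2 turned to -0.11 and -0.027, and those of HXK1 and the HXK2 start peak shrank to 0.088 and 0.037 with adjusted p of 0.295 and 0.736. The Day 3 libraries of these 4 peaks lay above those of Day 0, and the libraries of the days did not overlap at 64.6% of all peaks. The other 4 peaks had log2 fold changes between -0.092 and 0.029. HXK1 passed the test in DESeq2 (adjusted p = 0.0217), on total counts (0.0459), with all 10 libraries in the fit (0.0466) and without Day 0 replicate 2 (0.00910). The HXK2 start peak passed it in DESeq2 (0.0152), in the fit of 10 libraries (0.0466) and without Day 0 replicate 2 (0.0405), but not on total counts, where its value was 0.12 (0.248). On total counts, PMI40 and SEC53 were called lower, at -0.29 and -0.25, and after loess PSA1 was, at -0.28. Of all peaks, DESeq2 called 25.3%, edgeR on total counts 30.2% and edgeR after loess 13.1%.

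Between Day 3 and Day 7, as selection went on, both HXK2 peaks and the EMI2 peak fell. In edgeR, 3 of the 8 peaks were called, all lower, against 32.1% of all peaks called and 17.4% called lower. The HXK2 internal peak changed by -0.49 ± 0.11 with an adjusted p of 0.000265, and its libraries did not overlap between the days, as at 64.6% of all peaks. The HXK2 start peak changed by -0.31 ± 0.077 with an adjusted p of 0.00120, and the EMI2 start peak by -0.37 ± 0.079 with an adjusted p of 0.000115. HXK1 had a log2 fold change of -0.18 with an adjusted p of 0.196, and was called lower after loess at -0.23 (adjusted p = 0.000454) and on total counts at -0.20 (0.0151), which called 37.4% and 25.2% of all peaks. The other 4 peaks, GLK1 among them, had values between -0.076 and 0.076. Without Day 7 replicate 2 these calls did not hold. The values for the HXK2 internal, HXK2 start and EMI2 peaks moved little, to -0.45, -0.28 and -0.36. The share of all peaks called with a library left out is not given here, so a lost call is not read as particular to these peaks. The HXK2 start peak was also lost without Day 7 replicate 1 (0.0705) and in the fit of all 10 libraries (0.0588).

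From Day 7 to Day 10, across the end of selection, the 2 highest peaks per kb fell and the HXK2 internal peak rose after TMM scaling and on total counts, but not after loess. Of the 8 peaks, 4 were called in edgeR, 2 higher and 2 lower, against 70.2% of all peaks called, 37.4% higher and 32.8% lower. The log2 fold change of HXK1 was -0.72 ± 0.12 with an adjusted p of 0.000127, and GLK1 changed by -0.83 ± 0.14 with an adjusted p of 0.000128. Both were still called lower on total counts, at -0.40 and -0.51, but after loess neither was called and the values were 0.0078 and 0.061. The HXK2 internal peak rose by 0.57 ± 0.12 with an adjusted p of 0.000547, which was 0.037 with an adjusted p of 0.693 after loess. These 3 calls held without any 1 of the 4 libraries, with adjusted p of at most 0.0127 for HXK1, 0.0152 for GLK1 and 0.0299 for the HXK2 internal peak.

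The start peak of PMI40 was called higher over the same days, by 0.17 ± 0.070 with an adjusted p of 0.0432 in edgeR. The call was lost without Day 7 replicate 1 (0.342) or replicate 2 (0.310), with RLE factors (0.122), in the fit of 10 libraries (0.109) and in DESeq2 (0.205), and the value was 0.42 after loess and 0.49 on total counts, called in both. The HXK2 start, EMI2 and PSA1 peaks had log2 fold changes of -0.17, -0.069 and -0.12 with adjusted p of 0.0861, 0.505 and 0.269 in edgeR after TMM. The HXK2 start peak was called lower in DESeq2, at -0.21 with an adjusted p of 0.0313, where 32.1% of all peaks were called lower, and in edgeR without Day 10 replicate 1, at -0.20 (0.00646). After loess all 3 peaks were called higher instead, at 0.28, 0.41 and 0.44, and on total counts EMI2 and PSA1 were called higher at 0.25 and 0.19. SEC53 had -0.066, and 0.25 on total counts, where it was called. For the 8 peaks the calls were thus 2 higher and 2 lower after TMM, 4 and 0 after loess, and 5 and 2 on total counts. Over all peaks they were 1314 and 1153 after TMM, 1047 (29.8%) and 1031 (29.3%) after loess, and 2303 (65.5%) and 579 (16.5%) on total counts, which set the median peak at 0.36. The libraries of the days did not overlap at any of the 8 peaks and at 88.4% of all peaks.

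**Figure D3:**
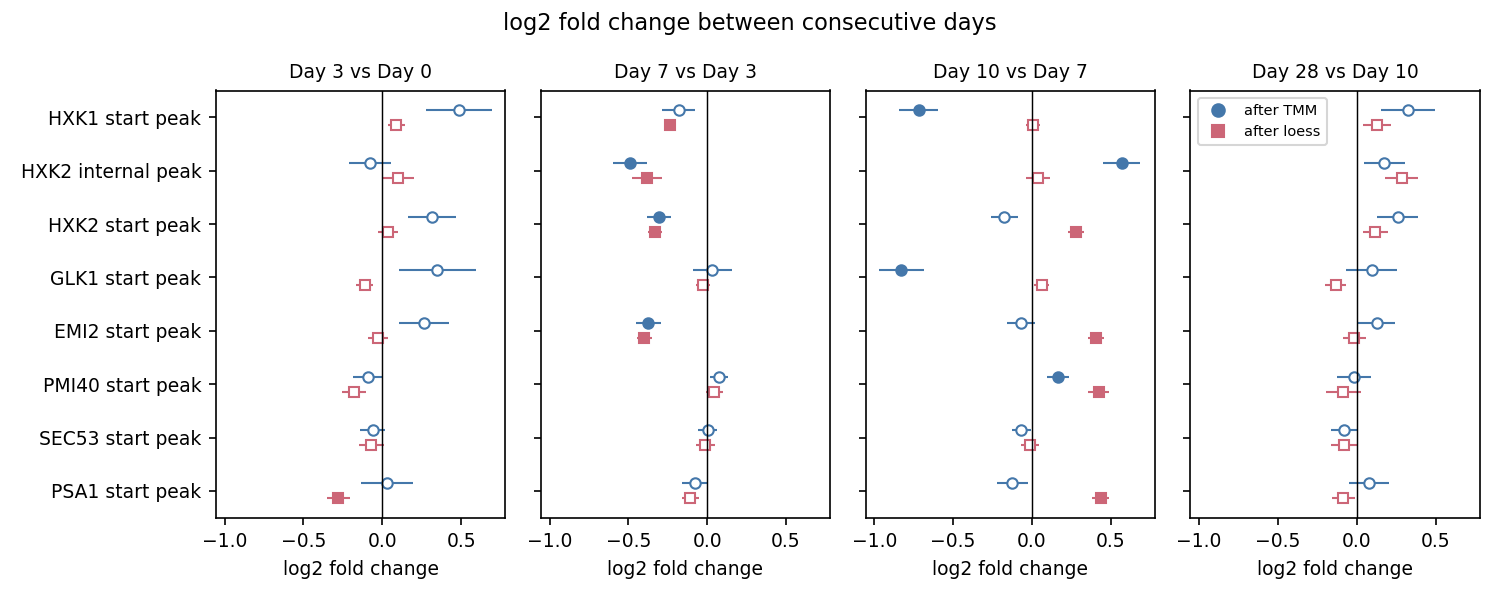
log2 fold change of each peak between consecutive days, with its standard error, in edgeR fits after TMM scaling (blue circles) and after a loess offset on peak level (red squares). Filled symbols have an adjusted p under 0.05; for Day 10 vs Day 7, HXK1 moves from -0.72 to 0.0078 and GLK1 from -0.83 to 0.061 between the scalings.

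Day 28 vs Day 10 compared the populations after selection had ended. In edgeR 0 of the 8 peaks and 0.0% of all 3515 peaks were called, with 0 of the 8 and 195 of all peaks at an unadjusted p under 0.05, and DESeq2 called 1.55% of the 517 peaks to which it gave an adjusted p, none of them among the 8. The log2 fold change was 0.32 for HXK1 and 0.26 for the HXK2 start peak, both with an adjusted p of 0.812, and the other 6 peaks lay between -0.079 and 0.18. The libraries of the days were apart at 5 of the 8 peaks and at 36.0% of all peaks.

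Against Day 0, 1 of the 8 peaks was called on Day 7 and none on Day 10 or Day 28. The HXK2 internal peak was that call, lower on Day 7 by -0.57 ± 0.11 with an adjusted p of 0.00131 in edgeR, where 45.1% of all peaks were called and 24.6% were called lower. HXK1 and GLK1 had log2 fold changes of 0.30 and 0.38 for Day 7 vs Day 0 with adjusted p of 0.138 and 0.139. Without Day 0 replicate 2 they were called higher, at 0.48 and 0.58, and after loess they were called lower, at -0.13 and -0.14. The HXK2 start, EMI2, PMI40, SEC53 and PSA1 peaks were not called after TMM, at 0.0054, -0.11, -0.021, -0.062 and -0.050. On total counts all 5 were called lower, at -0.20, -0.32, -0.23, -0.27 and -0.26, and after loess the HXK2 start, EMI2 and PSA1 peaks were, at -0.27, -0.39 and -0.38. Of the 8 peaks, 6 were thus called lower after loess and 6 on total counts, against 18.4% and 49.7% of all peaks, and over all peaks the calls were 719 higher and 866 lower after TMM but 342 and 1746 on total counts.

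On Day 10, HXK1 and GLK1 had log2 fold changes from Day 0 of -0.40 and -0.44, with edgeR's adjusted p of 0.145 and 0.164. None of the 8 was called there, against 0.0853% of all peaks, with 1 of the 8 and 1114 of all peaks at an unadjusted p under 0.05. DESeq2 called 25.0% of all peaks, and of the 8 it called HXK1, with an adjusted p of 0.0464. On Day 28, none of the 8 was called, against 8.82% of all peaks. There 1 of the 8 and 876 of all peaks had an unadjusted p under 0.05 in edgeR, and DESeq2 called 0 of the 8 and 253 of all peaks. GLK1 had -0.34 with an adjusted p of 0.350, and SEC53 had -0.19 with an adjusted p of 0.189, in edgeR. All 4 libraries of Day 0 and Day 28 were separated by day for GLK1, which was lower on Day 28, as they were at 55.0% of all peaks in either direction.

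Ratios of counts within a library need no scaling between libraries, and were formed after the levels had been seen, as a description. For the ratio of GLK1 to the HXK2 start peak, Day 0 gave 2.29 and 2.74, Day 3 gave 2.40 and 2.76, Day 7 gave 3.28 and 3.26, Day 10 gave 2.16 and 2.00, and Day 28 gave 1.82 and 1.88. The Day 7 ratios were the highest and the Day 28 ratios the lowest of the 10. For the ratio of HXK1 to the HXK2 start peak, Day 0 gave 1.59 and 1.86, Day 3 gave 1.90 and 1.98, Day 7 gave 2.16 and 2.09, Day 10 gave 1.53 and 1.38, and Day 28 gave 1.42 and 1.61. Day 3 and Day 7 lay above the other days in both libraries.

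Within HXK2, Day 0 gave a start peak with 9.15 and 10.1 times the counts of the internal peak, Day 3 gave ratios of 12.6 and 12.7, Day 7 gave 14.2 and 14.5, Day 10 gave 9.16 and 8.07, and Day 28 gave 8.19 and 9.97. The 4 libraries of Day 3 and Day 7 stood above those of Day 0 and Day 10. Nothing is read from the Day 28 ratios, since the internal peak entered the peak set through that day. The EMI2 and HXK2 start peaks kept nearly the same counts, with a ratio between 0.918 and 1.12 in the 10 libraries. GLK1 had 3.28 and 3.22 times the counts of its paralogue EMI2 on Day 7 and between 1.69 and 2.56 times on the other days. Except for EMI2 and the HXK2 start peak, these ratios set a higher peak against a lower one. The part of the shift of counts towards the highest peaks in them was not tested.

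**Figure D4:**
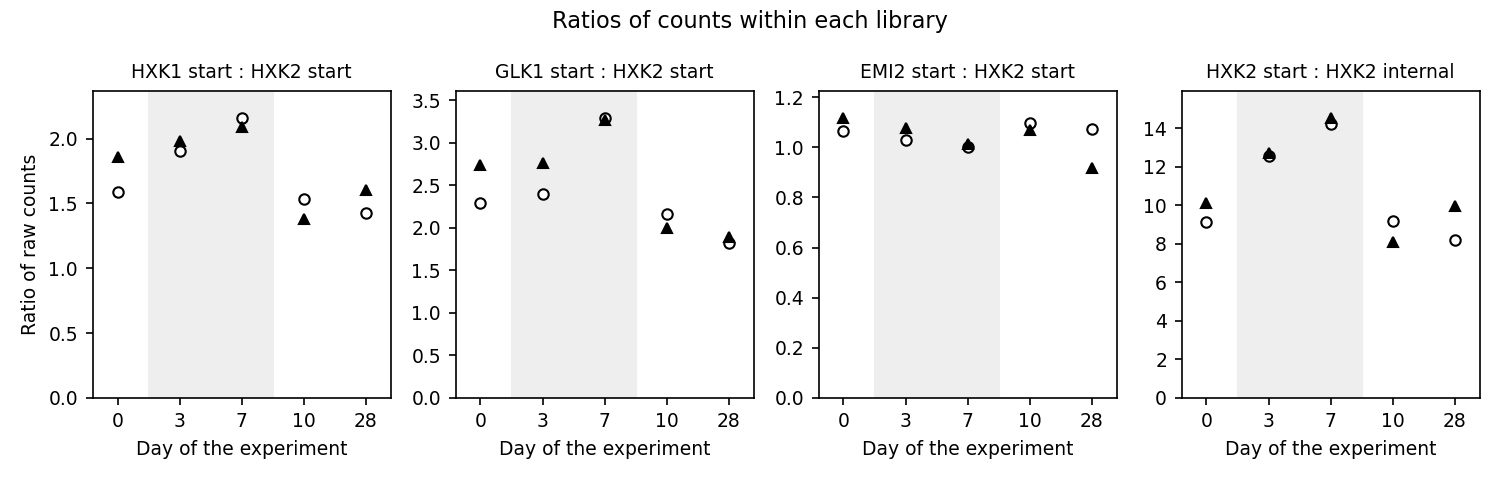
Ratios of raw counts between 2 peaks of the same library, by day with the days spaced evenly, from 0 on each vertical axis. Open circles are replicate 1 and filled triangles replicate 2; the grey band marks Day 3 and Day 7, where the HXK2 start peak had 12.6 to 14.5 times the counts of the internal peak.

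Correlations over the 10 libraries, which share days and depth, describe how alike the courses were. On the log2 scale, Pearson's r was 0.94 for HXK1 and GLK1, 0.90 for the HXK2 start peak and EMI2, 0.84 for HXK1 and the HXK2 start peak, and 0.61 for the paralogues GLK1 and EMI2. PSA1 had an r of 0.84 with HXK1, 0.77 with the HXK2 start peak, 0.75 with GLK1 and 0.75 with EMI2. PMI40 ran against HXK1 (r = -0.83). For the HXK2 internal peak and GLK1 r was -0.65, but it includes Day 28, through which the internal peak entered the peak set, and nothing is read from it. The courses of HXK1 and GLK1 were common ones. The peaks most like HXK1 were those of CYC3, the gene of cytochrome c heme lyase (r = 0.996, chrI:67777-71559), and NAT2 (r = 0.994, chrVII:785131-787279), and 472 peaks had r above 0.9. GLK1 was most like the peaks of YHR033W (r = 0.996, chrVIII:174211-177870) and of DPM1, which encodes dolichol phosphate mannose synthase (r = 0.995, chrXVI:899241-902268), with 547 peaks above 0.9. The HXK2 start peak had only 32 such peaks, led by those of the allantoin catabolism gene DAL3 (r = 0.964, chrIX:414558-416347) and the dCMP deaminase gene DCD1 (r = 0.957, chrVIII:388484-389209).

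Downstream of the 7 genes, 28 genes linked to the use of mannose in glycosylation were listed, and 14 of them had 16 assigned peaks. Not all of their products take GDP-mannose itself. Of these 16 peaks, edgeR called 1 higher and 2 lower on Day 3 vs Day 0, 2 higher and 6 lower on Day 7 vs Day 3, 9 higher and 6 lower on Day 10 vs Day 7, and 0 on Day 28 vs Day 10, beside 18.6%, 32.1%, 70.2% and 0.0% of all peaks called. After loess these calls became 0 and 0, 3 and 5, 7 and 4, and 0 in the same order. On total counts they were 1 and 3, 1 and 5, 10 and 2, and 0. Over all peaks the calls after loess were 247 and 214, 650 and 664, 1047 and 1031, and 0. On total counts those of all peaks were 200 and 862, 313 and 573, 2303 and 579, and 0. The list's counts under these scalings were not tested against all peaks. The median log2 fold change of the list after TMM was 0.017, -0.027, 0.31 and -0.023, beside -0.020, 0.0024, 0.042 and -0.017 over all peaks. MACS2 called 11 of the 16 peaks on all 5 days and the other 5 on some days only, never on Day 3, so that these 5 entered the peak set through the other days. Of the 11 alone, a choice made after seeing the data, edgeR called 1 higher and 0 lower, 1 higher and 3 lower, 5 higher and 5 lower, and 0 in the same order of comparisons, and their median on Day 10 vs Day 7 was -0.076.

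Large values in the list belonged to regions at the downstream ends of protein O-mannosyltransferase genes, which MACS2 called late only, that at PMT6 on Day 10 and that at PMT3 on Day 10 and Day 28. Their higher level on Day 10 is therefore partly set by how they entered the peak set, and their values for Day 10 vs Day 7 are given as a description. The PMT6 peak at chrVII:899213-899714 changed by -0.75 ± 0.13 from Day 3 to Day 7 and by 1.57 ± 0.16 from Day 7 to Day 10, with an adjusted p of 4.30e-06 in edgeR for the former. The PMT3 peak at chrXV:917669-919044 changed by -0.79 ± 0.081 and then by 1.33 ± 0.085, with an adjusted p of 9.36e-13 for the former. Both were annotated at the end of the convergent neighbouring gene, as the HXK2 internal peak was, and after loess the values were -0.40 and 0.84 for PMT6 and -0.78 and 1.11 for PMT3. The promoter peak of PMT3, chrXV:915026-916203, rose by 0.19 from Day 3 to Day 7, and the peak of the Golgi mannosyltransferase gene MNN10, which was not called by MACS2 on Day 3 or Day 7, by 0.27 after it had changed by -0.33 from Day 0. On total counts the values of PMT3 and MNN10 for Day 7 vs Day 3 were 0.17 and 0.25, with adjusted p of 0.0654 and 0.0768.

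Other called peaks of the list were those of the mannosyltransferase gene KTR1, at 0.39 on Day 3 vs Day 0 and -0.82 on Day 10 vs Day 7, and of the O-mannosyltransferase gene PMT5, which MACS2 did not call on Day 3, at -0.41 on Day 3 vs Day 0. After loess neither was called on Day 3 vs Day 0, with adjusted p of 0.0949 and 0.0883. DPM1 changed by -0.52 on Day 10 vs Day 7, but it was called higher after loess, at 0.15. A second list held 8 genes whose products use hexose 6-phosphates, of which 4 had 1 peak each. PGM1, a phosphoglucomutase gene, was called higher on Day 3 vs Day 0 at 0.38 and lower on Day 7 vs Day 3 at -0.33, the only calls of the list there after TMM. On total counts the former was lost, at 0.19 with an adjusted p of 0.0633, and ZWF1 was called higher on Day 7 vs Day 3 at 0.30, as it was after loess at 0.25. On Day 10 vs Day 7, 3 of the 4 were called lower, beside 32.8% of all peaks, led by the glucose 6-phosphate dehydrogenase gene ZWF1 at -0.99 and the trehalose 6-phosphate synthase gene TPS1 at -0.60. After loess none was called lower. ZWF1 had -0.051 and was not called, and TPS1 and the glucosamine 6-phosphate synthase gene GFA1 were called higher at 0.12 and 0.26. On total counts ZWF1 and TPS1 were called lower, GFA1 was called higher at 0.44 and PGM1 had 0.071, and on Day 28 vs Day 10 none of the 4 was called.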

How the data were processed

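The 10 libraries, 2 per day, were analysed. Per the labels and methods, the authors trimmed reads with Trim Galore 0.5.0, mapped them with Bowtie2 2.2.9 to R64 (sacCer3), called peaks with MACS2 2.1.1, annotated them with HOMER, merged them with bedtools 2.30.0 and counted reads with featureCounts 1.6.3. The handling of duplicate or multiply mapped reads is not given in the sources used here. The authors deposited raw counts per merged peak, and normalized counts, a signal equal to the counts divided by 1 size factor per library. Levels use the normalized counts, and tests the raw counts, in edgeR 4.0.16 under R 4.3.3 (TMM, filterByExpr, quasi-likelihood, 4 libraries per pair of days). The filter removed 0 peaks. DESeq2 1.42.0, RLE factors, total counts, loess with a span of 0.3, all 10 libraries in one fit, a mean count of at least 500 and each library left out were alternatives. Procedures were tested on simulated data.

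Deposited distances matched the distance to R64 coding starts within 2 bases for 3094 of 3097 peaks. A start peak is the peak with the largest overlap of the promoter window. Text names every such peak, the 2 peaks most like the start peaks of HXK1, HXK2 and GLK1, and per list and consecutive comparison the 2 largest called changes in each direction. One peak name that is cut short in a count file was matched by its start. Genes, lists and tests were chosen with earlier results of these data known. Authors' fold changes were not used.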

Additional observations from a re-analysis of the deposited data

How the results depend on the processing

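Of 178 single-peak values under settings other than leaving out a library, 17 reversed, 2 of them where the peak had been called (HXK1 and GLK1 for Day 10 vs Day 7). Loess on abundance turned GLK1 to -0.11 and EMI2 to -0.027 for Day 3 vs Day 0, HXK1 to -0.13, GLK1 to -0.14 and the HXK2 start peak to -0.27 for Day 7 vs Day 0, and for Day 10 vs Day 7 HXK1 to 0.0078, GLK1 to 0.061, the HXK2 start peak to 0.28, EMI2 to 0.41 and PSA1 to 0.44. Total counts turned the HXK2 start peak to 0.14, EMI2 to 0.25 and PSA1 to 0.19 for Day 10 vs Day 7, and the HXK2 start peak to -0.20 for Day 7 vs Day 0. In that last comparison values near 0 changed sign for the HXK2 start peak with a mean count of 500 (-0.0041) and for PMI40 with RLE factors (0.0017) and in DESeq2 (0.0019), and with a library left out they ranged from -0.049 to 0.062 for the HXK2 start peak, -0.066 to 0.025 for PMI40, -0.15 to 0.032 for SEC53 and -0.11 to 0.012 for PSA1. By construction total counts, RLE factors and the loess offset set the zero point of fold changes differently, and with loess it differs with peak level. The cause of the changes with level was not tested.

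The number of called peaks among the 8 moved for Day 3 vs Day 0 from 0 to 3 on total counts, 1 after loess, 2 in DESeq2, 2 with all 10 libraries and 0 to 2 when a library was left out. For Day 7 vs Day 3 it was 3, and 0 to 4 when a library was left out, with 0 without Day 7 replicate 2. For Day 10 vs Day 7 it moved from 4 to 7 on total counts, for Day 7 vs Day 0 from 1 to 6 on total counts, 6 after loess and 1 to 3 with a library left out (3 without either Day 0 library), and for Day 10 vs Day 0 from 0 to 1 in DESeq2. The F test over the 5 days called 8 on total counts, 6 after loess, 6 in DESeq2 and 3 to 6 with a library left out, with 3 without Day 3 replicate 2. RLE factors and the filter at a mean count of 500 moved none of these counts by over 1.5 times. A lone library left in a day is assumed to vary like the others. The share of all peaks called with a library left out is not given here, so these counts are not read as particular to the 8 peaks. Over all peaks, Day 3 vs Day 0 gave 337 higher and 316 lower calls after TMM but 200 and 862 on total counts, where the median peak lay at -0.21, and Day 7 vs Day 3 gave 515 and 613 but 313 and 573.

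Primed and unprimed library names allow a replicate block for Day 28 vs Day 10 only. The same-named libraries deviated in opposite directions (r = -0.67 over 3515 peaks), and no source says that the names pair cultures. The block by name called 0 of the 8 peaks, and the crossed block, chosen after seeing the data, called 2. How many of all peaks the crossed block called is not given here, and nothing is read from its calls. With 2 libraries per day and raw counts of at least 377, a missed threshold does not show that days were alike.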
